A study of Mus musculus with 82 samples.

Results

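Tnks2, Fgfbp3, Cpeb3, March5, Ide, Kif11, Hhex and Exoc6 are genes on either side of Btaf1 on mouse chromosome 19, from Tnks2 and Fgfbp3 before it to Hhex and Exoc6 beyond it. They were chosen by symbol, and these 8 genes of the 55376 in the RNA-seq count tables were followed across every RNA library analysed. In the same stretch of the mm10 build, from just before Tnks2 to inside Exoc6, lay 65 of the 127695 regions counted by ATAC-seq, an assay of open chromatin. Among the peaks of histone marks, 16 of 39557 H3K27ac peaks, 17 of 33199 H3K4me3 peaks and 4 of 55820 H3K27me3 peaks were assigned to one of the 8 genes in the deposited peak tables.

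The study asked how hematopoietic stem cells (HSCs) change with age and what Btaf1 does in them. All donors were wild-type C57BL/6J male mice. Young HSCs (YHSCs) came from mice of 3 to 4 months and old HSCs (OHSCs) from mice of 24 to 26 months, sorted as LSK CD34- Flk2- CD150+ bone marrow cells. RNA was read in 4 YHSC libraries, made from pooled mice, and 8 OHSC libraries, each from 1 mouse, ATAC-seq in 4 libraries of each age (OHSC replicates 5 to 8), and H3K27ac in 2 of each age. H3K4me3 and H3K27me3 were read in 2 YHSC libraries each. Further OHSC columns, 4 of ATAC-seq, 2 of H3K4me3 and 2 of H3K27me3, match no listed sample and were not used here, so the age comparison of ATAC-seq rests on a part of the OHSC libraries and that of the other 2 marks was not made. In the knockdown experiment OHSCs received a lentivirus with a control shRNA or with 1 of 2 shRNAs against the shorter Btaf1 variant, and were either cultured or transplanted into lethally irradiated young female CD45.1 recipients. Transplanted cells were recovered as GFP+ CD45.2+ LSK CD48- CD150+ cells from pooled recipients, so that a different gate and the passage through a host separate them from the cultured cells. Each of these 6 groups had 2 libraries. Common myeloid (CMP), granulocyte-macrophage (GMP) and megakaryocyte-erythroid (MEP) progenitors of young mice had 2 RNA libraries each. The labels do not say whether the cultured and progenitor libraries came from separate cultures or mice, so P-values within these experiments measure the spread between libraries.

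The genes share a stretch of chromosome, not a pathway. Btaf1 encodes an ATPase that removes the TATA-binding protein from DNA. Tnks2 encodes a tankyrase, a poly-ADP-ribosylating enzyme that acts on axins and telomere proteins, and Fgfbp3 a secreted protein that binds fibroblast growth factors. Cpeb3 encodes an RNA-binding regulator of translation, March5 a ubiquitin ligase of the mitochondrial outer membrane, and Ide a zinc metalloprotease of the M16 family that degrades insulin. Kif11 encodes kinesin-5, the motor that pushes spindle poles apart in mitosis, so its transcript is known to follow the share of dividing cells. Hhex encodes a homeobox factor of blood and endothelial progenitors, and Exoc6 a subunit of the exocyst, the complex that tethers secretory vesicles and whose loss in the hbd mouse causes anemia.

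From left to right the genes stood in the order Tnks2 (ENSMUSG00000024811, chr19:36834232-36893477, plus strand), Fgfbp3 (ENSMUSG00000047632, chr19:36917550-36919615, minus), Btaf1 (ENSMUSG00000040565, chr19:36926079-37012752, plus) and Cpeb3 (ENSMUSG00000039652, chr19:37021291-37208601, minus). They were followed by March5 (ENSMUSG00000023307, chr19:37207543-37222151, plus), Ide (ENSMUSG00000056999, chr19:37268743-37337852, minus), Kif11 (ENSMUSG00000012443, chr19:37376403-37421859, plus), Hhex (ENSMUSG00000024986, chr19:37434810-37440731, plus) and Exoc6 (ENSMUSG00000053799, chr19:37550418-37684059, plus). The start of Fgfbp3 was 6.5 kb from that of Btaf1 and pointed the other way. The start of Tnks2 was 91.8 kb away, those of March5 and Cpeb3 281.5 and 282.5 kb, that of Ide 411.8 kb, that of Kif11 450.3 kb, that of Hhex 508.7 kb and that of Exoc6 624.3 kb. Cpeb3 and March5 overlapped head to head at their starts. Cpeb3 also overlapped the antisense gene A330032B11Rik, and Ide the pseudogene Rpl10-ps6 on its own strand, and because no source used here gives the strand and multi-mapping settings of the counting, reads of such neighbors may not be separated.

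In YHSCs 7 of the 8 genes had an H3K4me3 peak, the mark of active starts, assigned to their start, and none was assigned to the start of Ide. The start peak signal, in the authors' read-normalized units, was 30.3 and 31.73 in the 2 libraries at Hhex and 28.51 and 28.65 at the shared start of Cpeb3 and March5. It was 21.97 and 26.4 at Kif11, 20.71 and 22.95 at Fgfbp3, 22.47 and 20.93 at Tnks2 and 21.96 and 20.73 at Exoc6, against a median of 5.37 over all H3K4me3 peaks. The peaks assigned to Ide lay in its body and had mean YHSC signals of 0.975 to 1.56, which placed them between percentiles 1.5 and 12.3 of all peaks. Those at 1.56 and 0.975 are listed as found in OHSCs and not in YHSCs. H3K36me3, the mark of transcribed gene bodies, covered all of Ide and of Hhex, 97% of Tnks2, 90% of March5, 88.3% of Exoc6, 74.8% of Kif11, 58.2% of Cpeb3 in 9 domains, and 21.8% of the short Fgfbp3. These domains are listed without signal, and no source used here gives the libraries they were called from. Peaks of H3K27me3, the mark of Polycomb-silenced chromatin, were assigned to Cpeb3 with mean YHSC signals of 0.516, 0.323 and 0.469, and to Kif11 as 1 domain of 17.0 kb at 0.215, against a median of 0.389 over all peaks. The Cpeb3 peak at 0.323 is listed as found in OHSCs only, and that at 0.469 as found in YHSCs only.

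The promoter sequences differed in base composition and in the motifs they held. Below are the 300-base promoter windows (250 bases before to 50 after the start, RefSeq, GRCm38.p6, which is the mm10 build) of the 2 genes whose RNA rose with age, Fgfbp3 (chr19:36919550-36919849, minus strand) and Ide (chr19:37334495-37334794, minus), of the mitotic gene Kif11 (chr19:37376132-37376431, plus) and of Cpeb3 (chr19:37207422-37207721, minus), the most CpG-rich of the 4. Each is written 5′ to 3′ along its gene. Capitals mark matches to 6 short motifs searched on both strands, the TATA box (TATAAA), the CCAAT box (CCAAT), the GC box (GGGCGG), an ETS core (CCGGAA), the CHR element of cell-cycle genes (TTTGAA) and the E-box (CACGTG).
Fgfbp3: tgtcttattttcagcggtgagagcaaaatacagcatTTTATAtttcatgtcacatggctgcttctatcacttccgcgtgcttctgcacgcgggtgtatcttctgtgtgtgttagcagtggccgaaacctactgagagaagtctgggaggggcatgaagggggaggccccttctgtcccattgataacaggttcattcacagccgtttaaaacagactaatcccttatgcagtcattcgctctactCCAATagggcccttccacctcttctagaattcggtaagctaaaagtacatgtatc
Ide: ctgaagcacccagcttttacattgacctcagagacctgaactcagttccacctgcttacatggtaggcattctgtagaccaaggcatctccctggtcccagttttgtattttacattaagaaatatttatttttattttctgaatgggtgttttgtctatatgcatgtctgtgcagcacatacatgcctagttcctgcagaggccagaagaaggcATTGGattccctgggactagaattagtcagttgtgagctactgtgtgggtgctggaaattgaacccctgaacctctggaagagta
Kif11: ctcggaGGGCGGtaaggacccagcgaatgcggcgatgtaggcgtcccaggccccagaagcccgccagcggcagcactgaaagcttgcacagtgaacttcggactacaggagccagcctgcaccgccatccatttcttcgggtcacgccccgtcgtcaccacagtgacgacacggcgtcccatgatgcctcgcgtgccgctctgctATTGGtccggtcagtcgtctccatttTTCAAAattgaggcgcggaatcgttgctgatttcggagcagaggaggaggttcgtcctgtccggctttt
Cpeb3: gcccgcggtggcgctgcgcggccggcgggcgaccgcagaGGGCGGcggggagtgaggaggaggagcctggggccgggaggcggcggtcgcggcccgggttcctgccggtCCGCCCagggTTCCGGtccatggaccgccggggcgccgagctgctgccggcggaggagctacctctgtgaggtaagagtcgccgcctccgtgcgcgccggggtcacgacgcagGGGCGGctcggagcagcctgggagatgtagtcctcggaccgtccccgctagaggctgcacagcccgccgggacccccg
The Fgfbp3 window held 46.7% G and C and 9 CpG, with 1 TATA box on the opposite strand and 1 CCAAT box. The Ide window held 44.0% G and C and no CpG, with 1 reversed CCAAT box. The Kif11 window held 60.7% G and C and 28 CpG, with 1 GC box and, on the opposite strand, 1 CCAAT box and 1 CHR element. The Cpeb3 window printed above, of the outermost of its 3 RefSeq starts, held 77.7% G and C and 42 CpG, with 3 GC boxes and 1 ETS core, while those of the 2 inner starts held 46.0% and 47.0% G and C with 0 and 4 CpG. Across all 32851 RefSeq promoter windows the medians were 52.7% and 7 CpG, and 13.6% held a TATA box, 37.4% a CCAAT box, 35.7% a GC box, 14.9% an ETS core, 17.9% a CHR element and 7.2% an E-box. The windows of the other members were also rich in CpG, with 37 in Hhex, 37 in March5, 30 in Exoc6 and 29 in Tnks2.

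The placement of the Ide start was uncertain in these annotations. The RefSeq window printed above ends at position 37334794, the first protein-coding GENCODE transcript starts at 37330613 and the gene's outer end, from a retained-intron transcript, is 37337852. The H3K36me3 domain over Ide ran from 37267001 to 37357000, which is 19.1 kb past that outer end. Between the protein-coding start and the end of this domain no window of 300 bases held more than 12 CpG, against 32 in the Kif11 start region. The H3K4me3 peaks in that stretch, chr19:37332947-37333856 and chr19:37340495-37341033, had mean YHSC signals of 0.845 and 1.01. Values at the start of Ide are given with this limit.

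The libraries held 20.5 to 24.7 M gene counts for YHSCs and OHSCs, 33.2 to 42.7 M for cultured cells, transplanted cells and progenitors, and the ATAC libraries 15.4 to 26.3 M. All 8 genes of the long-term HSC list (Slamf1, Procr, Mecom, Hlf, Fgd5, Kit, Ly6a, Hoxb5) were present in YHSCs and OHSCs, with summed levels of 3349 to 3541 and 3229 to 3780 CPM (counts scaled to the size of the library). The list is not exclusive to these cells, and it summed to 533.7 to 587.5 CPM in MEPs, where Procr and Hoxb5 had no reads. The 5 megakaryocyte markers (Itga2b, Pf4, Gp1bb, Vwf, Gp9) summed to 471.7 to 505.3 CPM in YHSCs and 873.4 to 1234 in OHSCs, and the 6 granulocyte and monocyte markers to 126.4 to 254.9 and 293.2 to 392.3. Most of the latter sum was Prtn3, at 118.5 to 135.7 CPM in YHSCs and 286.2 to 342.4 in OHSCs, while the median over the 5 granulocyte and monocyte markers tested was lower in OHSCs (log2 -1.96, range -3.25 to 1.32). The progenitors held their lineage markers, with granulocyte and monocyte sums of 59890 to 60739 CPM in GMPs and erythroid sums of 6340 to 6778 in MEPs. These are bulk samples, in which fewer cells of a type and less RNA per cell cannot be told apart.

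**Figure D1:**
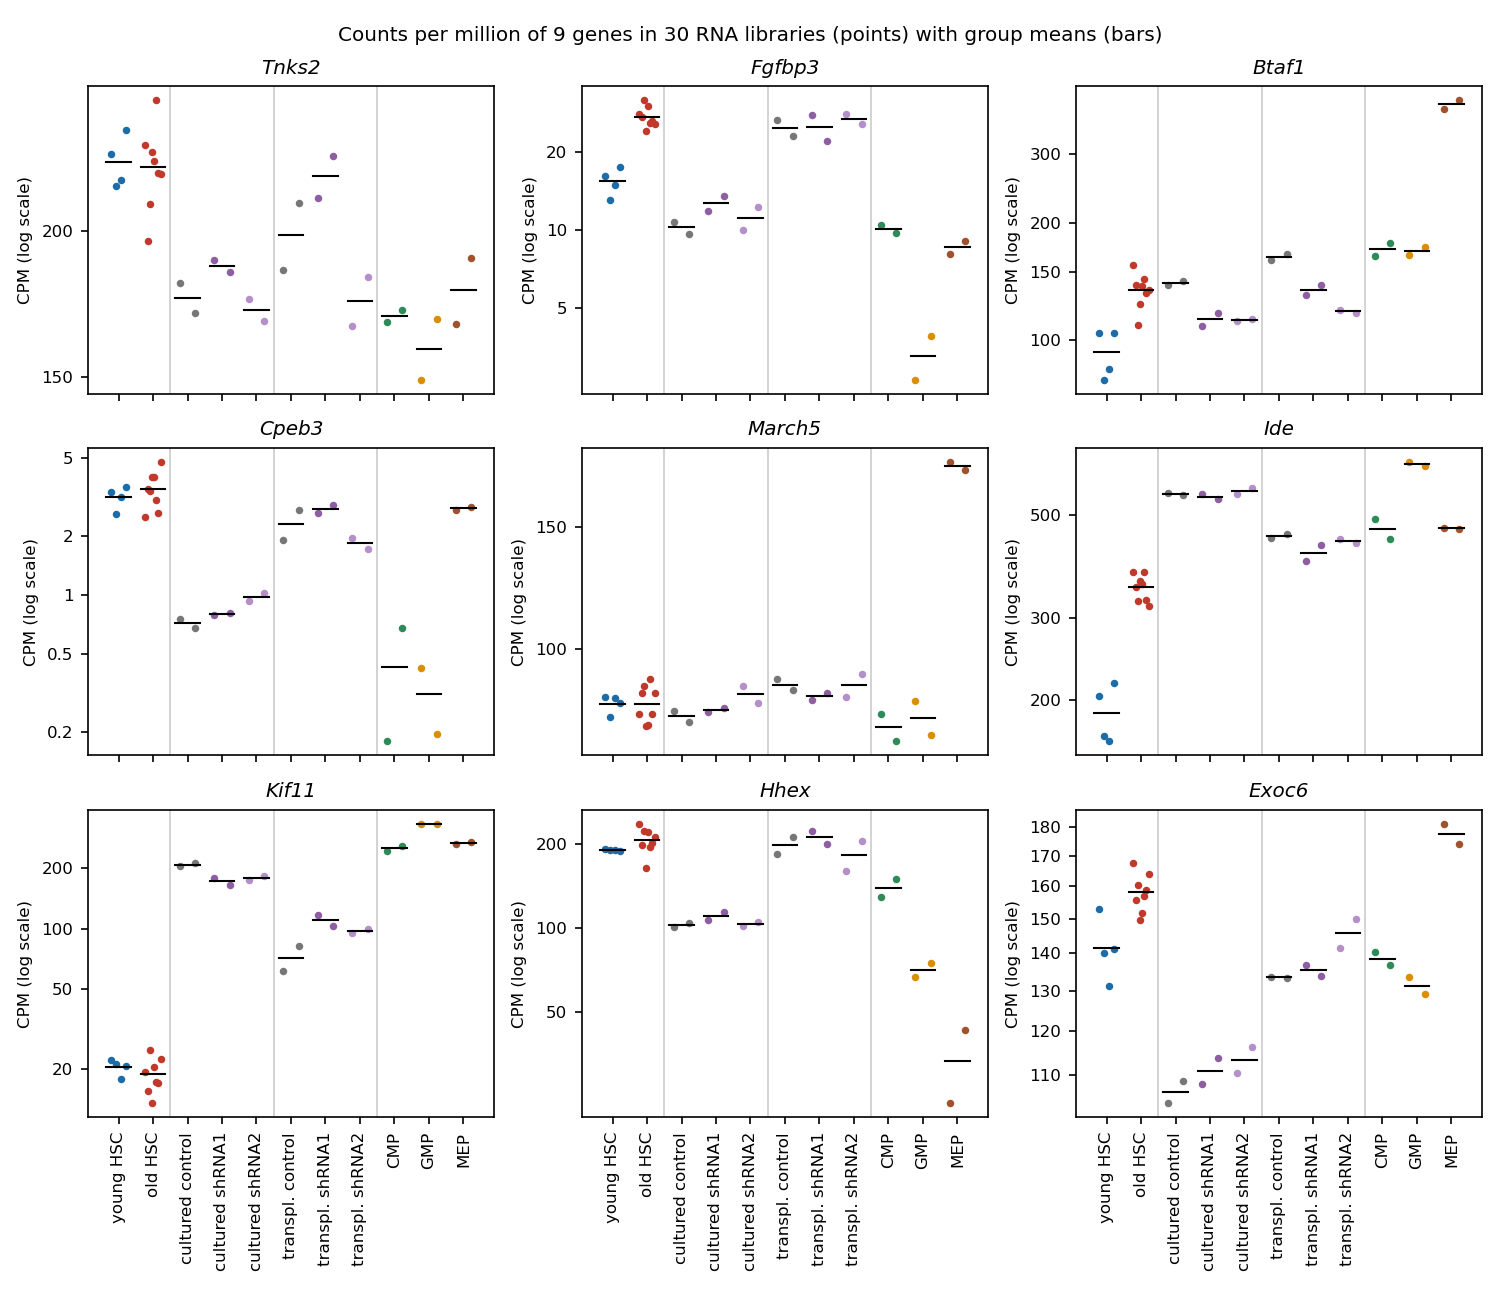
Level of Btaf1 and its 8 neighbors in CPM (log axis, 1 panel per gene) in all 30 RNA libraries, shown as points, in 11 groups, with group means as bars. Kif11 spans from about 20 CPM in YHSCs and OHSCs to above 300 in GMPs, whereas March5 stands apart from its other groups in MEPs.

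Each gene had its own order of levels over the 11 groups, given here as group means in CPM; the experiments were normalized separately, so differences between them are descriptions. Kif11 was highest in GMPs (331.5), then MEPs (266.3), CMPs (250.8) and cultured control cells (207.7), and far lower in transplanted control cells (71.8), YHSCs (20.5) and OHSCs (18.8), whose ranges overlapped. Hhex ran from 211.5 in transplanted shRNA1 cells, 206.6 in OHSCs and 190.6 in YHSCs, which overlapped their neighbors in the order, to 139.6 in CMPs, 70.5 in GMPs and 33.2 in MEPs. Ide was highest in GMPs (643.5), followed by the cultured groups (547.6 to 563.3), and OHSCs (349.6) and YHSCs (188.1) were last, each apart from the next. Fgfbp3 was highest in OHSCs (27.5), with the transplanted groups (24.9 to 27) overlapping it, lower in YHSCs (15.5), CMPs (10.1) and MEPs (8.57), and lowest in GMPs (3.27). March5 stood at 183.3 in MEPs, and its other 10 groups overlapped in turn between 77.2 and 88.9. Exoc6 was also highest in MEPs (177.6), followed by OHSCs (158.1). Tnks2 had the smallest ratio between its highest and lowest group, from 229.0 in YHSCs to 158.5 in GMPs. Cpeb3 was scarce, from 3.46 in OHSCs to 0.31 in GMPs.

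Per kilobase of exon, the only scale on which levels of different genes are compared, the order of the group means changed with age. Differences between genes within a group were not tested. In YHSCs Exoc6 led with 39.9 CPM per kb, then Hhex with 37.7, March5 with 34.7, Ide with 25.1 and Tnks2 with 22, and Fgfbp3 stood at 8.72, Kif11 at 2.75 and Cpeb3 at 0.426. In OHSCs Ide led with 46.6 CPM per kb, ahead of Exoc6 with 44.6 and Hhex with 40.9. In cultured control cells Ide stood at 73.8 and Kif11 at 27.8 CPM per kb.

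Ide and Fgfbp3 rose in OHSCs, and no member was called lower. These 2 of 8 members differed by more than 1.5-fold at an adjusted P below 0.05, where 7.52% of the 21522 genes tested did so (edgeR quasi-likelihood test, 8 OHSC against 4 YHSC libraries). The median log2 difference was 0.12 over the members and -0.01 over all genes. Ide stood at 204.2, 167.4, 163.2 and 217.6 CPM in the 4 YHSC libraries and between 318.8 and 378.0 CPM, median 353.1, in the 8 OHSC libraries. Every OHSC library was above every YHSC library. The means were 349.6 ± 23.0 (SD, n = 8) and 188.1 ± 26.9 CPM (SD, n = 4), a 1.86-fold difference (log2 0.89, SE 0.0759, adjusted P = 2.46e-07). Fgfbp3, which starts next to Btaf1, stood at 16.2, 13.1, 15 and 17.5 CPM in YHSCs and between 24.3 and 31.9 CPM, median 26.9, in OHSCs. Here too the ages were apart, with means of 27.5 ± 2.49 (SD, n = 8) and 15.5 ± 1.86 CPM (SD, n = 4), a 1.78-fold difference (log2 0.83, SE 0.0837, adjusted P = 5.68e-08).

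Btaf1 stood between these genes and the rest. Its level was 104.5, 79.3, 84.4 and 104.5 CPM in YHSCs and 109.6 to 155.7 CPM, median 136.0, in OHSCs, apart but 1.44-fold higher (log2 0.53, SE 0.0937, adjusted P = 0.000807), which missed the fold threshold. Without YHSC replicate 1 or replicate 4 it passed, at 0.59 in both cases. Exoc6 was 1.12-fold higher in OHSCs, at 149.6 to 167.5 against 131.2 to 153.0 CPM, with overlapping ranges (log2 0.16, SE 0.0433, adjusted P = 0.00845). The other 5 members showed no difference that passed either criterion. Their log2 differences were 0.12 for Hhex (SE 0.0698, adjusted P = 0.3), 0.13 for Cpeb3 (SE 0.171, adjusted P = 0.69), 0.0 for March5 (SE 0.0484, adjusted P = 0.996), -0.02 for Tnks2 (SE 0.0544, adjusted P = 0.899) and -0.13 for Kif11 (SE 0.128, adjusted P = 0.584). Cpeb3 rested on 56 to 108 reads per OHSC library. Markers of other cell types moved with age in both directions. Of the megakaryocyte markers 2 of 4 tested were called higher in OHSCs, and of the granulocyte and monocyte markers 1 was higher and 1 lower of 5 tested. Of the B cell markers 4 of 6 were called lower, with sums of 110.4 to 219.2 CPM in YHSCs and 35.2 to 198.2 in OHSCs, and of the erythroid markers 2 were higher and 3 lower of 6, with sums of 156.9 to 224.9 and 42.3 to 195.8 CPM. The part of these markers in the differences of Ide and Fgfbp3 was not tested.

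The relatives of each member were read in lists of genes with the same role, each of which counts the member itself. Among 7 genes of the M16 metallopeptidase family Ide was the only one called with age, and none was called lower. Among 7 FGF-binding proteins and receptors Fgfbp3 was the only one called. Among 24 genes of the mitotic spindle none was called higher and 2 were called lower in OHSCs, the kinesin gene Kif23 (-0.78) and the mitotic kinase gene Cdk1 (-0.71), with a list median of -0.1. Among the 4 CPEB genes Cpeb1 (1.8) and Cpeb2 (0.89) rose while Cpeb3 did not pass the test. Among 9 exocyst genes Exoc6b (0.6) was called, and it lost the call without YHSC replicate 2 or without OHSC replicate 1, 4 or 6, at 0.55 to 0.58. Of 7 tankyrase partners the telomere protein gene Terf1 (0.64) was higher, and of 9 genes of mitochondrial division and fusion 0 were called by edgeR and 2 passed an unadjusted P of 0.05 at any fold, as 6463 of 21522 genes did, with log2 differences of -0.122 to 0.159.

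**Figure D2:**
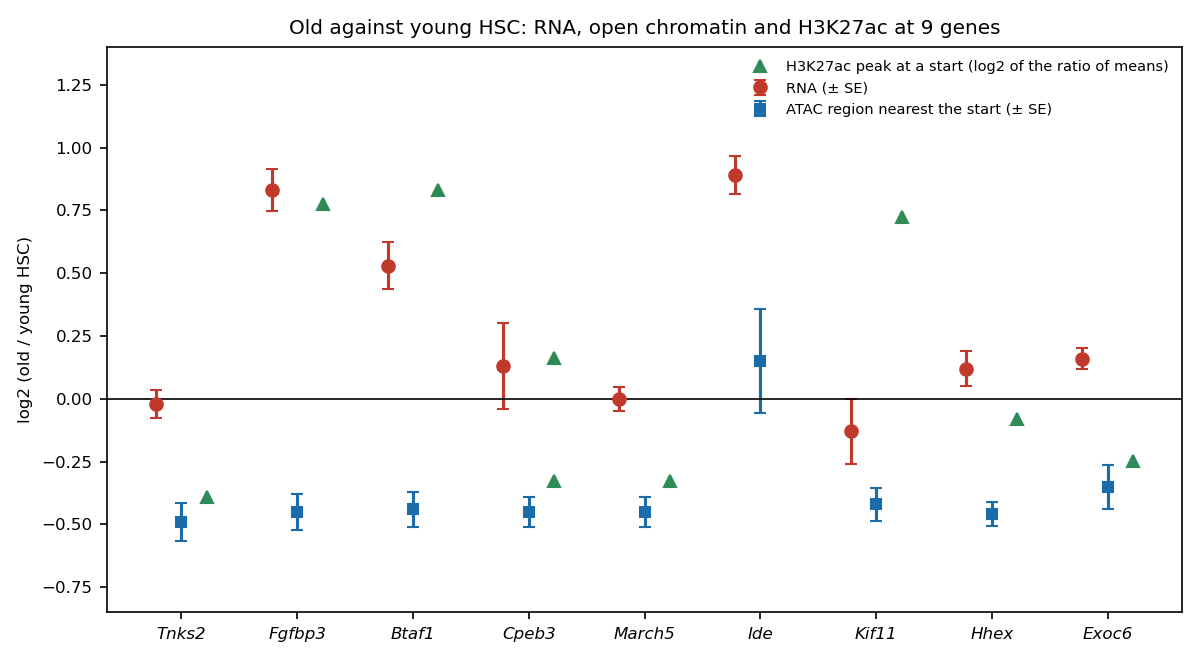
Difference between OHSCs and YHSCs on a log2 scale (vertical axis, above 0 is higher in OHSCs) for Btaf1 and its 8 neighbors in RNA (circles, ± SE), in the ATAC region nearest the gene start (squares, ± SE, shared by Cpeb3 and March5) and in H3K27ac peaks at the start (triangles, ratio of means without error). The ATAC squares of all genes but Ide lie below 0, while the RNA of Ide and Fgfbp3 lies near 0.9.

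Open chromatin at most of the members' starts was lower in OHSCs by adjusted P, as was a smaller share of the other regions. Few regions of either kind were called once the fold threshold was added. Of the 65 ATAC regions 48 passed the depth filter, and 5 of these 48 were called, all lower in OHSCs by more than 1.5-fold at an adjusted P below 0.01 (edgeR). In the genome 13.0% of the 89245 regions tested were called, and 2.90% were called lower. In the window 40 of 48 regions had a log2 difference below 0, with a median of -0.37 against -0.01 over all regions tested. At an adjusted P below 0.01 and any fold, 19 were lower and 0 higher. Regions at starts of coding genes were lower in OHSCs genome-wide as well, with a median of -0.14 over 14612 regions, 80.1% below 0 and 26.2% lower at an adjusted P below 0.01. For the 10 start regions of the window the median was -0.44, with 100% below 0 and 90% lower at that P. Regions away from starts had a median of 0.04 in the genome and of -0.33 for the 38 in the window, of which 26.3% were lower at that P against 6.27% in the genome and 8 lay above 0.

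The regions at the outer starts of 7 members and of Btaf1 differed by nearly the same factor. At Hhex (chr19:37434223-37436071) the level was 84.8, 86.43, 82.08 and 85.21 CPM in the 4 YHSC libraries and 67.57, 57.26, 62.59 and 58.16 in the 4 OHSC libraries (log2 -0.46, adjusted P = 8.73e-12). At the shared start of Cpeb3 and March5 (chr19:37206612-37208681) it was 41.0, 38.12, 40.88 and 41.56 against 32.46, 29.39, 27.3 and 29.69 CPM (-0.45, adjusted P = 1.73e-08). At Fgfbp3 (chr19:36918368-36919786), a gene with higher RNA in OHSCs, it was 24.07, 27.32, 27.98 and 26.05 against 19.67, 18.28, 19.38 and 19.63 CPM (-0.45, adjusted P = 9.39e-07). In each of these regions the ages did not overlap. The same held at Tnks2 (chr19:36833835-36835131, -0.49, adjusted P = 7.79e-07), Btaf1 (chr19:36925532-36926653, -0.44, adjusted P = 7.36e-07), Kif11 (chr19:37375712-37376668, -0.42, adjusted P = 7.92e-07) and Exoc6 (chr19:37550129-37551036, -0.35, adjusted P = 0.00155). None of these outer start regions reached a fold change of 1.5, the folds being 1.27 to 1.4. Regions at inner starts of Cpeb3 differed less, at -0.28 and -0.23, and that at a second start of Hhex more, at -0.71. The region nearest the outer end of Ide, chr19:37340403-37341065, was 2.6 kb away and stood at 2.3, 2.06, 2.56 and 3.43 against 2.9, 2.07, 4.24 and 2.46 CPM (0.15, adjusted P = 0.61), with overlapping ages.

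The 5 called regions were a second, downstream start of Hhex, an exon of Ide, an intron of Exoc6 and 2 intergenic regions before Exoc6. At the second Hhex start (chr19:37436488-37436855) the level was 8.61, 10.39, 8.21 and 9.55 CPM in YHSCs and 7.25, 4.94, 5.61 and 4.77 in OHSCs, apart and 1.63-fold lower (log2 -0.71, adjusted P = 1.71e-05). In the intron of Exoc6 (chr19:37553927-37554461) it was 8.2, 7.23, 8.29 and 8.88 against 5.75, 4.58, 6.14 and 5.29 CPM (-0.59, adjusted P = 0.000205), again apart, and the call was lost without YHSC replicate 4 (-0.55) or OHSC replicate 6 (-0.51) or 8 (-0.57). Over the Ide exon (chr19:37307270-37308127) it was 6.03, 4.2, 6.39 and 6.16 against 3.88, 3.38, 4.76 and 2.54 CPM (-0.66, adjusted P = 0.00104), and the ages overlapped because of 1 low YHSC library. Without OHSC replicate 8 this call was lost (-0.51). The intergenic region chr19:37523297-37523873 was at 3.51 to 4.88 CPM in YHSCs and 2.17 to 3.11 in OHSCs, apart (-0.62, adjusted P = 0.00506), and lost its call without YHSC replicate 1 or 3 or OHSC replicate 5 or 8 (-0.59 to -0.52). The intergenic region chr19:37546867-37547325 was at 2.62 to 4.34 against 1.86 to 2.87 CPM, with overlapping ages (-0.64, adjusted P = 0.00858), and lost its call with DESeq2 (-0.65) and without YHSC replicate 2, 3 or 4 or OHSC replicate 5, 7 or 8 (-0.67 to -0.54). Without 1 library 2 to 6 regions were called, with 2 left without OHSC replicate 8 and 3 without YHSC replicate 3 or OHSC replicate 5. Among the regions tested and not called, the largest differences were -0.58 in an exon of Ide (chr19:37290654-37291324, adjusted P = 0.00157), which was called without YHSC replicate 1, 2 or 4 or OHSC replicate 6 or 7 (-0.63 to -0.59) and with no CPM filter (-0.6), and -0.59 and -0.58 in introns of Cpeb3 (chr19:37147215-37147480 and chr19:37156879-37157309), and on the other side 0.4 in an intergenic region (chr19:37530153-37530444), 0.31 in an intron of Btaf1 (chr19:36930177-36930405) and 0.17 in an intron of Ide (chr19:37288913-37289374).

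**Figure D3:**
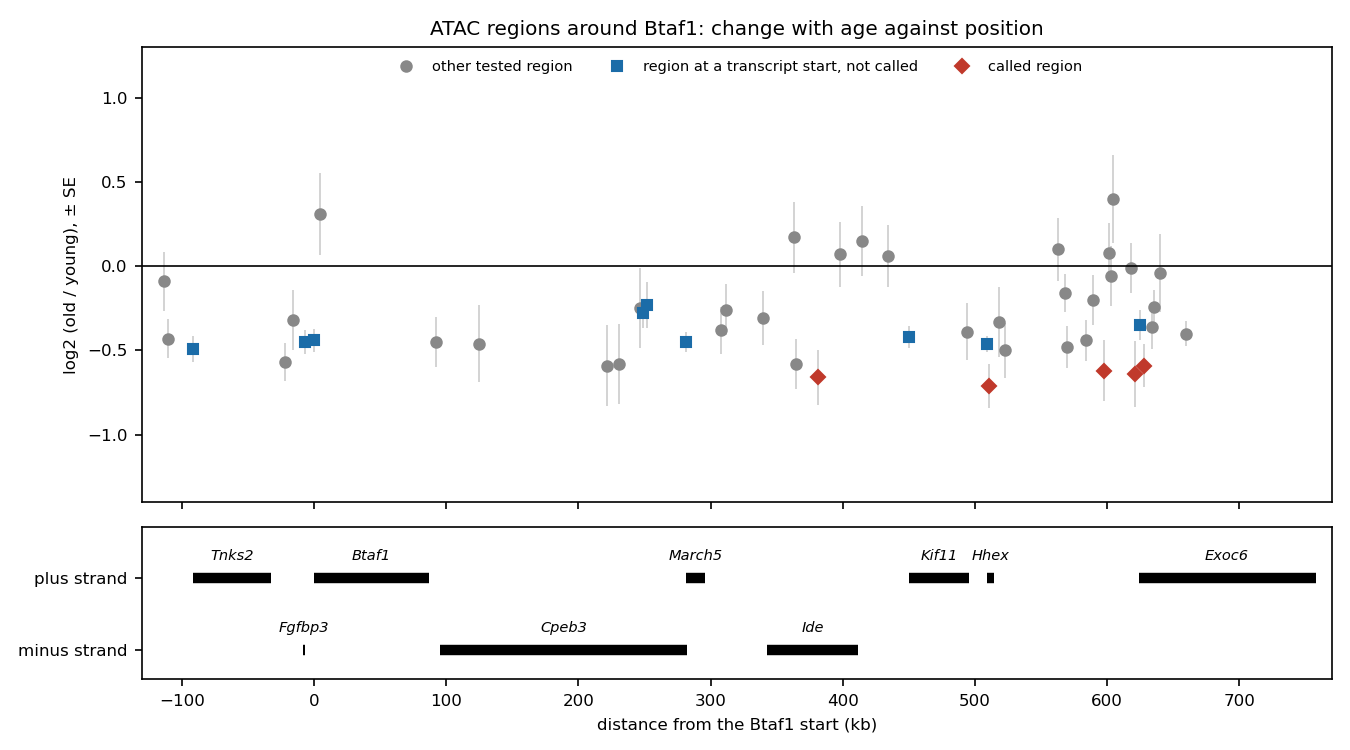
Difference in ATAC-seq counts between OHSCs and YHSCs (log2, ± SE, vertical axis) for the 48 tested regions against distance from the Btaf1 start in kb (horizontal axis), with the genes drawn by strand below. Squares are regions at gene starts and diamonds the 5 called regions, and 40 of the 48 points lie below 0.

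H3K27ac, the mark of active starts and enhancers, moved the other way at some of the same places. A peak was called when the ratio of the age means was above 1.5 and every OHSC library was at least 1.2-fold above every YHSC library, which is a description and not a test with 2 libraries per age. Of the 16 member peaks 5 were called, all higher in OHSCs, while 11.4% of all 39557 peaks were called in either direction and 9.11% were called higher. Over all peaks 3602 were called higher and 898 lower, and the counts were 7054 and 1098 without YHSC replicate 1, 3846 and 2162 without YHSC replicate 2, and 2773 and 1437 with the libraries scaled to the same median. They were the start peaks of Fgfbp3 and Kif11 and 3 peaks in the body of Ide. Peaks near gene starts were called higher in 2.71% of 13392 cases, with a median ratio of 0.98, and the 26165 peaks away from starts, the class of the Ide body peaks, in 12.4% of cases, with a median ratio of 1.09.

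At the Fgfbp3 start (chr19:36918259-36919752) the H3K27ac signal was 3.59 and 3.61 in YHSCs and 5.88 and 6.45 in OHSCs, a ratio of 1.71. At the Kif11 start (chr19:37375307-37376729) it was 7.73 and 6.98 against 11.83 and 12.4, a ratio of 1.65, although Kif11 RNA did not pass the test of age. At the Btaf1 start it was 12.95 and 11.43 against 22.95 and 20.56, a ratio of 1.78. In the body of Ide it was 3.1 and 2.49 against 5.29 and 6.0 at chr19:37322932-37324425 (ratio 2.02), 2.18 and 1.76 against 2.96 and 4.19 at chr19:37290574-37291864 (1.81), and 1.45 and 2.21 against 2.81 and 3.31 at chr19:37288693-37289277 (1.67). The peak at chr19:37288693-37289277 lost its call without YHSC replicate 1, at 1.39, and with libraries scaled to the same median, at 1.54. Another Ide peak, chr19:37307114-37307636, had a ratio of 1.37, and without YHSC replicate 1 it was called at 1.69. On limma's test the adjusted P was 0.026 for the Ide peak with the ratio of 2.02, 0.0322 for Btaf1, 0.0505 for Fgfbp3 and 0.0556 for Kif11. All ages were apart in these called peaks.

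The start peaks of the other members were not called. The H3K27ac signal was 7.38 and 4.39 in YHSCs and 4.63 and 4.36 in OHSCs at Tnks2 (ratio 0.763), and 8.02 and 7.78 against 6.32 and 6.27 at the start of Cpeb3 and March5 (0.797). It was 4.14 and 3.41 against 3.18 and 3.95 at Hhex (0.945) and 6.22 and 3.82 against 4.03 and 4.44 at Exoc6 (0.843). The Tnks2 peak was called lower without YHSC replicate 2, at 0.609, so that 1 library decides it. An internal start of Cpeb3 had a ratio of 1.12, and 5 peaks in the body of Exoc6 ratios of 0.916 to 1.08.

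Near the uncertain start of Ide stood peaks that the deposited table assigns to no gene and that are not counted among the 16. At chr19:37332639-37333832, close to the RefSeq start printed above, the H3K27ac signal was 0.99 and 1.01 in YHSCs and 3.35 and 3.39 in OHSCs, a ratio of 3.37 (limma adjusted P = 0.00328). At chr19:37340533-37341088, which overlaps the ATAC region with no detectable difference in age, the ratio was 1.81.

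**Figure D4:**
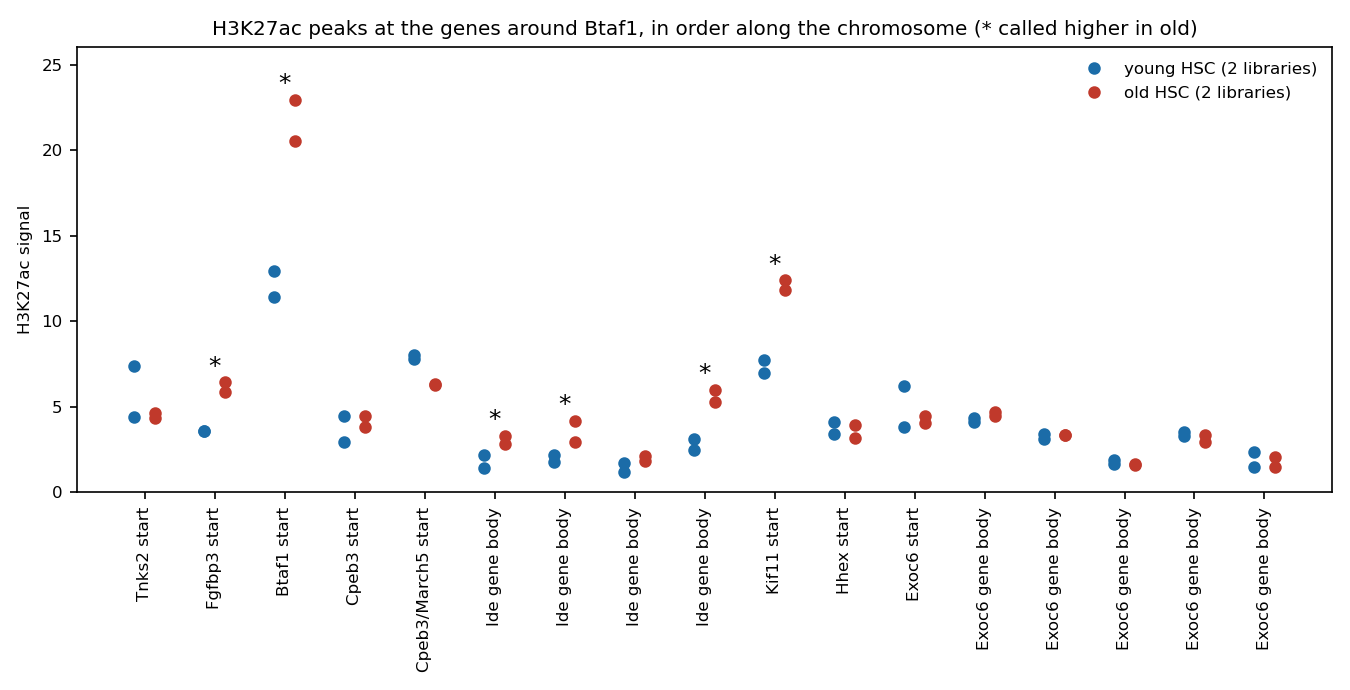
H3K27ac signal (authors' read-normalized units) in 2 YHSC and 2 OHSC libraries, shown as points, for the 16 peaks assigned to the 8 genes and the Btaf1 start peak, with asterisks over the 6 called peaks. The OHSC points of the Fgfbp3, Kif11 and Btaf1 start peaks lie above both YHSC points, whereas those of Tnks2 and of Cpeb3 and March5 do not.

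The knockdown experiment asks what lowering the shorter Btaf1 variant does in OHSCs, and the targeted gene was read first. Gene-level counts do not separate the Btaf1 variants, so the values cover both. In culture Btaf1 stood at 138.3 and 142.3 CPM with the control shRNA, 108.8 and 117.7 with shRNA1 and 112.4 and 113.3 with shRNA2. All 4 knockdown libraries were below both controls, 1.24-fold on average (log2 -0.31, SE 0.0465, adjusted P = 0.00151). After transplantation it stood at 160.9 and 166.4 CPM with the control, 130.5 and 138.9 with shRNA1 and 119.6 and 117.7 with shRNA2, again apart and 1.29-fold lower (edgeR, log2 -0.37, SE 0.0767, adjusted P = 0.791, with an unadjusted P below 0.05).

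No member was called in either setting by the rule used here, more than 1.5-fold at an unadjusted P below 0.05, which 3.42% of 19763 genes passed in culture and 2.24% of 20350 after transplantation (edgeR). At an unadjusted P below 0.05 and any fold 1 of 8 members passed in each setting, where 15.3% of all genes did in culture and 5.59% after transplantation, and DESeq2 also called 0 by the rule. That member was Kif11, which moved in opposite directions. In culture it stood at 204.3 and 211.0 CPM with the control, 178.6 and 165.4 with shRNA1 and 175.1 and 182.0 with shRNA2. The knockdown libraries were all below the controls, with means of 175.3 ± 7.17 (SD, n = 4) and 207.7 ± 4.8 (SD, n = 2), 1.19-fold lower (edgeR, log2 -0.24, SE 0.0455, adjusted P = 0.00756). After transplantation it stood at 61.5 and 82.0 CPM with the control, 116.8 and 103.4 with shRNA1 and 95.0 and 99.3 with shRNA2. Here the knockdown libraries were all above the controls, with means of 103.6 ± 9.4 (SD, n = 4) and 71.8 ± 14.4 (SD, n = 2), 1.44-fold higher (edgeR, log2 0.53, SE 0.123, adjusted P = 0.791, with an unadjusted P below 0.05). Each shRNA read against the same 2 control libraries, which the values therefore share, gave -0.27 and -0.22 in culture and 0.62 and 0.44 after transplantation, and the value of shRNA1 after transplantation passed the rule. Without transplanted control replicate 2 the pooled value was 0.75, read against a single control library.

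The difference between the 2 knockdown effects was tested as an interaction over all 12 libraries. Kif11 was the 1 member called at an adjusted P below 0.05, where 0.210% of 21443 genes were, with a log2 difference of -0.78 between culture and transplantation (edgeR, SE 0.14, adjusted P = 0.0438). The call depended on single libraries. Over the 12 fits without 1 library it was kept in 4 and lost in 8, with values of -1.0 to -0.58 and adjusted P of 0.0104 to 0.264, the smallest difference being that without transplanted control replicate 1. With the replicate number as a block its adjusted P was 0.0612, and in DESeq2 it was 5.15e-05. Of the 24 spindle genes, Kif11 included, 5 were called lower in this interaction, among them the kinesin gene Kif2c (-0.96) and the checkpoint kinase gene Bub1 (-0.81), and the list median was -0.55 against 0.0 over all genes. Bub1 lost its call with the replicate block (-0.81) and in 7 of the 12 fits without 1 library (-0.84 to -0.75), and Kif2c in 4 of them (-1.01 to -0.83). In culture alone 0 of the 24 were called by edgeR at more than 1.5-fold, with log2 differences of -0.479 to 0.004 and a median of -0.22. An unadjusted P of 0.05 at any fold was passed there by 15.3% of all genes and by 22 of the 24. After transplantation all 24 had log2 differences above 0, from 0.175 to 0.605 with a median of 0.31. That P was passed there by 5.59% of all genes and by 10 of the 24. Of these Cenpf (0.6), which encodes a centromere protein, was called, a call it lost by adjusted P (0.852), with shRNA2 alone (0.39) and without transplanted control replicate 1 (0.42) or either shRNA1 replicate (0.58 and 0.49). Granulocyte and monocyte markers, 6 of 6 detected, summed to 187.2 to 337.3 CPM in the transplanted controls, 264.2 to 674.0 with shRNA1 and 220.9 to 352.6 with shRNA2. In other marker sets the knockdown libraries were apart from the controls. Long-term HSC markers summed to 1345 to 1357 CPM in the cultured controls, 1518 to 1544 with shRNA1 and 1484 to 1580 with shRNA2. After transplantation they summed to 2860 to 2941, 2626 to 2655 and 2510 to 2761 CPM. Single genes of this list went both ways, at log2 -0.343 to 0.868 in culture (median 0.11) and -0.271 to 0.031 after transplantation (median -0.03). None of the 8 was called in either setting. In culture the granulocyte and monocyte markers, with S100a8 and S100a9 at 0 in every group, summed to 157.5 to 163.7 CPM in controls, 183.1 to 183.2 with shRNA1 and 231.5 to 242.7 with shRNA2. Of these 6 markers only 1 had enough reads to be tested (log2 0.389), and it was not called. The erythroid markers summed to 42.7 to 42.8, 32.1 to 35.4 and 31.8 to 32.7 CPM. Of these 6 markers 4 were tested, at -0.608 to 0.079, and 1 was called lower. The part of these markers in the Kif11 difference was not tested. For Btaf1 the interaction was 0.06 (SE 0.0917, adjusted P = 0.919), and for the other members the adjusted P was 0.814 or higher.

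**Figure D5:**
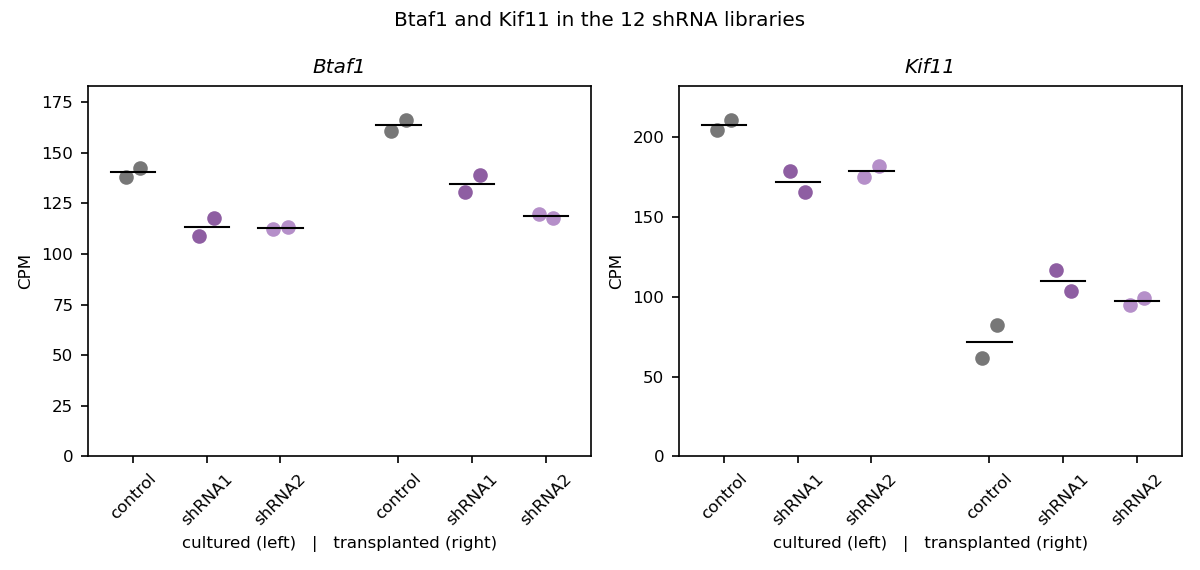
Level of Btaf1 and of Kif11 in CPM (vertical axes from 0) in the 12 shRNA libraries, as points with group means as bars, for cultured and transplanted OHSCs with the control shRNA, shRNA1 or shRNA2. Btaf1 is lower with both shRNAs in both settings, whereas Kif11 is lower in culture and higher after transplantation.

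For the other members the difference between knockdown and control passed neither criterion. Ide stood at 556.8 and 551.4 CPM in cultured controls and 541.1 to 571.4 in cultured knockdown cells, with overlapping ranges, and at 446.6 and 456.3 CPM against 398.5 to 445.0 after transplantation, apart and 1.06-fold lower in knockdown cells (adjusted P = 0.945). Cpeb3 stood at 0.676 to 0.756 CPM in cultured controls and 0.792 to 1.02 in cultured knockdown cells, also apart, 1.24-fold higher on few reads (log2 0.31, SE 0.334, adjusted P = 0.736). Fgfbp3 stood at 10.8 and 9.68 CPM in cultured controls, 11.9 and 13.5 with shRNA1 and 10.0 and 12.3 with shRNA2, and at 26.7 and 23.1, 28.0 and 22.2, and 28.1 and 25.8 CPM in the transplanted groups, 1.17-fold higher with knockdown in culture (log2 0.22, SE 0.129, adjusted P = 0.454). Exoc6 stood at 133.4 to 133.6 CPM in transplanted controls and 133.9 to 149.9 in transplanted knockdown cells, apart and 1.05-fold higher (adjusted P = 0.946). The unadjusted P was 0.104 or higher for the members other than Kif11 in culture and 0.222 or higher after transplantation.

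Between the control cells of the 2 settings Kif11 was higher in culture, and Fgfbp3, Cpeb3 and Hhex were lower. The contrast covers the setting and the sort gate at once, which cannot be told apart, and the labels and the study's methods differ on the library kit of the transplanted cells. Of the 8 members 1 was higher and 3 were lower in culture by more than 1.5-fold at an adjusted P below 0.05, where 24.9% of 21443 genes were called (edgeR), and the median was -0.13 for the members and -0.03 for all genes. The CPM values of this fit, in which all 12 libraries were normalized together, differ slightly from those above. Kif11 was 217.2 ± 4.35 CPM in cultured and 68.8 ± 13.9 in transplanted control cells (SD, n = 2 each), 3.16-fold higher in culture (log2 1.66, SE 0.117, adjusted P = 1.08e-07). Fgfbp3 was 10.7 against 23.9 CPM (2.23-fold lower, adjusted P = 3.01e-05), Hhex 107.2 against 190.2 (1.77-fold lower, adjusted P = 8.18e-05) and Cpeb3 0.749 against 2.21 (2.93-fold lower, adjusted P = 0.00193), the last from 32 and 25 reads in the cultured libraries. Ide was 1.34-fold higher in culture (adjusted P = 2.69e-05) and Exoc6 1.15-fold lower (adjusted P = 0.0195), both below the fold threshold. Btaf1 (-0.1, adjusted P = 0.329), Tnks2 (-0.05, adjusted P = 0.78) and March5 (-0.03, adjusted P = 0.792) did not pass the test. Of the 24 spindle genes 23 were called higher in culture, with a median of 1.8, led by the mitotic kinase gene Plk1 (2.47), Bub1 (2.34) and Kif2c (2.24). Of the 9 genes in the Hhex list 4 were called lower, Hhex itself among them, with Hlf (-1.23) and Lmo2 (-0.88). Long-term HSC markers, 8 of 8 detected, summed to 1345 to 1357 CPM in cultured and 2860 to 2941 in transplanted controls, and megakaryocyte markers, 5 of 5 detected, to 1264 to 1299 and 429.8 to 613.5, and their part in these differences was not tested.

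Among the progenitors March5 was higher in MEPs than in both other types, as was Cpeb3. It stood at 185.8 and 180.8 CPM in MEPs, 84.3 and 75.2 in GMPs and 80.7 and 73.7 in CMPs. MEPs were apart from both, 2.3-fold above GMPs (log2 1.2, SE 0.069, adjusted P = 3.52e-09) and 2.37-fold above CMPs (log2 1.25, SE 0.0688, adjusted P = 2.41e-09). Btaf1 differed by nearly the same factors, at 392.5 and 413.3 CPM in MEPs, 165.5 and 173.7 in GMPs and 164.7 and 177.8 in CMPs (2.38-fold and 2.35-fold). Of the other genes of mitochondrial division and fusion, the fusion GTPase gene Mfn1 was higher in MEPs too, by 1.38 against GMPs and 1.43 against CMPs, and the adaptor gene Mief2 was lower (-0.67 and -0.66), a call it lost in both comparisons without MEP replicate 2 (-0.51 and -0.5).

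Between MEPs and GMPs 3 of 8 members were called, all higher in MEPs, and between MEPs and CMPs 2 were higher and 1 lower, where 43.7% and 46.7% of 18234 genes were called (edgeR, 2 libraries per type). The member medians were 0.3 and 0.08, against -0.03 and -0.07 over all genes. Cpeb3 was 8.75-fold above its GMP level in MEPs (log2 3.13, SE 0.549, adjusted P = 0.000234) and 6.46-fold above its CMP level (log2 2.69, adjusted P = 0.00045), from 96 and 99 reads in MEPs against 14 and 6 in GMPs and 7 and 26 in CMPs. Its relative Cpeb4 was higher in MEPs as well (1.26 and 1.67), and Cpeb2 lower (-2.85 and -2.41). Fgfbp3 stood at 8.07 and 9.07 CPM in MEPs, 2.64 and 3.9 in GMPs and 10.5 and 9.73 in CMPs. GMPs were the low group, 2.63-fold below MEPs (adjusted P = 5.53e-05) and 3.1-fold below CMPs (log2 -1.63, SE 0.207, adjusted P = 4.85e-05), and Fgfbp3 was the 1 member called between GMPs and CMPs, where 16.7% of genes were called and the medians were -0.09 for the members and 0.01 for all genes. The FGF receptor genes Fgfr1 (-1.69) and Fgfrl1 (-0.86) were also lower in GMPs than in CMPs, and Fgfr1 lost its call with DESeq2 (-1.7) and without either CMP library or GMP replicate 1 (-1.79 to -1.18).

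Hhex was lowest in MEPs, at 23.4 and 42.9 CPM, against 66.5 and 74.6 in GMPs and 129.3 and 149.8 in CMPs, with all 3 types apart. It was 4.2-fold lower in MEPs than in CMPs (log2 -2.07, SE 0.335, adjusted P = 0.00943), and 2.12-fold lower than in GMPs, which did not pass edgeR's test (log2 -1.09, SE 0.336, adjusted P = 0.0603) but was called by DESeq2 (-1.09) and with the replicate block (-1.12). The 2 MEP libraries were far apart in its level. Without CMP replicate 1 or 2 the difference of MEPs from CMPs was -2.19 or -1.98. Without MEP replicate 1 or 2 the difference of MEPs from GMPs was -0.73 or -1.59. These fits leave a single library of a type, so no call is read from them. The difference of GMPs from CMPs, -0.98 (adjusted P = 0.103), was called by DESeq2 (-0.99) and with the block (-0.98), and stood at -0.99 without either MEP library. Of the 9 genes in the Hhex list 7 were called lower in MEPs than in CMPs, Hhex itself and among others the stem cell factors Meis1 (-6.11) and Hlf (-5.2), and 1, Tal1, was called higher (1.61).

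Ide and Kif11 were highest in GMPs, by less than 1.5-fold. Ide stood at 650.6 and 636.5 CPM in GMPs, 469.1 and 467.7 in MEPs and 490.8 and 443.4 in CMPs, with GMPs apart (1.37-fold above MEPs, adjusted P = 2.41e-06, and 1.38-fold above CMPs, adjusted P = 1.16e-05). Of the 7 M16 genes 4 were called higher in MEPs than in GMPs and 5 than in CMPs, among them Pitrm1, which encodes a mitochondrial presequence peptidase, by 1.44 and 1.59. Between GMPs and CMPs 0 of the 7 were called by edgeR, and all 7, Ide included, were above 0 at 0.148 to 0.499 and passed an unadjusted P of 0.05, where 43.2% of all genes did. Kif11 stood at 332.7 and 330.4 CPM in GMPs, 262.5 and 270.2 in MEPs and 244.4 and 257.3 in CMPs (1.24-fold above MEPs, adjusted P = 4.74e-05, and 1.32-fold above CMPs, adjusted P = 2.25e-05). Of the spindle genes 8 of 24 were called higher in GMPs than in CMPs, among them Plk1 (0.97), Aurka (0.88) and Aurkb (0.78), with a list median of 0.47. Exoc6 was 1.35-fold above GMPs in MEPs (adjusted P = 7.54e-06), and among the other exocyst genes Exoc5 was higher (0.78) and Exoc6b lower (-1.05). Tnks2 stood at 166.4 and 189.5 CPM in MEPs, 149.1 and 167.9 in GMPs and 167.1 and 171.1 in CMPs and was not called. Its partner genes Axin2 (1.7) and Terf1 (-0.7) were called between MEPs and GMPs, and Axin2 lost its call without GMP replicate 1 (1.64) or MEP replicate 2 (1.42).

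YHSCs were compared with CMPs in 1 fit that also held the other progenitors. Cell type and experiment differ together here and cannot be told apart, and the YHSC libraries had counts in 37847 to 42062 features against 23257 and 23405 in CMPs. Between them 64.3% of 25716 genes were called, with a median over all genes of 0.49. Of the members 1 was called higher and 2 were called lower in YHSCs, with a median of -0.17. Kif11 was 17.2 against 286.5 CPM in this fit, 16.6-fold lower in YHSCs (log2 -4.06, SE 0.0574, adjusted P = 1.97e-23), and all 24 spindle genes were called lower, with a median of -3.51. Ide was 157.8 against 533.5 CPM, 3.38-fold lower (log2 -1.76, SE 0.116, adjusted P = 5.34e-06), and 6 of the 7 M16 genes were called lower, among them the complex III core protein genes Uqcrc1 (-1.32) and Uqcrc2 (-0.86). Cpeb3 was 2.65 against 0.486 CPM, 5.44-fold higher in YHSCs (log2 2.44, SE 0.395, adjusted P = 1.09e-05). Btaf1 was 78.2 against 195.6 CPM, 2.5-fold lower in YHSCs (log2 -1.32, SE 0.105, adjusted P = 2.74e-06). Exoc6 (-0.42, adjusted P = 5.43e-07) and March5 (-0.33, adjusted P = 4.5e-05) were lower by less than 1.5-fold, and Tnks2 (-0.01, adjusted P = 0.912) did not pass the test. Hhex did not differ detectably (0.0, adjusted P = 0.985), although 5 genes of its list were called higher in YHSCs, with Hlf (4.78) the most. Fgfbp3 was 13.0 against 11.6 CPM and not called (log2 0.16, adjusted P = 0.328), and most other genes of its list had few or no reads in CMPs, so that their count is not given. Members near 0 lie below the median of 0.49 over all genes in this fit. The part of the larger number of features with counts in YHSCs in that median was not tested.

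The genes whose pattern was most like each member's were sought among 15895 genes, by Pearson's r of the mean log2 CPM over the 11 RNA groups, which share experiments and libraries, so r is a description. Kif11 was most like Cenps (r = 0.997), Cdca5 (0.996) and Ttk (0.995), genes of the kinetochore, sister chromatid cohesion and the spindle checkpoint. March5 was most like Dap3 (0.994), Minpp1 (0.988) and Usp45 (0.988), and Hhex like Rnf180 (0.988), Sytl4 (0.985) and Ripor2 (0.984). Cpeb3 was most like Klhdc8b (0.984), Nat8f4 (0.976) and Smim8 (0.975), and Fgfbp3 like Ssbp2 (0.977), Sox6 (0.97) and Simc1 (0.968). Tnks2 was most like Gm49223 (0.966), Bicral (0.963) and Gm37738 (0.954), and Exoc6 like Slc5a2 (0.962), Cfap126 (0.96) and Ccdc15 (0.96). The likenesses of Ide were the weakest of the 8, among them those to Cmpk1 (0.93) and to Rpl10-ps6 (0.917), the pseudogene inside it. None of the 8 members was among the 3 genes most like another, and with Btaf1 itself r ran from 0.82 for March5 and 0.56 for Exoc6 to -0.36 for Fgfbp3 and -0.75 for Hhex. March5 stood at 183.3 CPM in MEPs and at 77.2 to 88.9 in its other groups, and Btaf1 was also highest in MEPs (402.9). The part of this 1 group in the r values of March5 was not tested.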

How the data were processed

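RNA-seq, ATAC-seq and ChIP-seq of sorted mouse HSCs and of progenitors were analysed from the deposited tables, with groups taken from the sample labels. For RNA the authors used cutadapt for trimming, STAR for alignment to mm10 and featureCounts with GENCODE genes, and deposited raw counts per gene, and they deposited raw ATAC counts per consensus region (BWA, MACS2 peaks merged), not normalized. No source used here gives the strand setting. Histone signal per peak was deposited after the authors scaled libraries to a fixed read number, so a global gain or loss of a mark would not be seen. The H3K36me3 table deposited by the authors holds domain positions only. Columns of the authors' own fold ratio and its log2 were not used, nor were 8 per-sample OHSC columns (4 of ATAC-seq and 2 each of H3K4me3 and H3K27me3) that match no listed sample. Hi-C, H3K9me3 and progenitor ChIP-seq were not analysed here.

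Counts were tested over all genes or regions with edgeR 4.0.16 (TMM, filterByExpr, robust quasi-likelihood) in R 4.3.3, with Benjamini-Hochberg adjustment, and DESeq2 1.42.0 as an alternative. The 92 spike-in features of the YHSC and OHSC libraries were left out of library sizes, and took 6.0484% to 6.9317% of their reads. RNA calls needed a fold above 1.5 and an adjusted P below 0.05, except for the shRNA comparisons (unadjusted P, the 2 shRNAs pooled) and the interaction (adjusted P alone). ATAC regions needed more than 1.5 CPM in 4 libraries and an adjusted P below 0.01. H3K27ac was described by ratios, with limma 3.58.1 on log2(signal + 0.5) as an alternative. Start regions lay within 100 bases of an annotated start. Tables were handled in Python 3.11.15 with pandas 2.3.3. Scripts were tested on simulated data. Within groups no 2 of the RNA or ATAC libraries agreed within sampling noise, since chi-square per degree of freedom over genes or regions was 4.42 to 17.68 for 43 RNA pairs and 2.17 to 3.41 for 12 ATAC pairs.

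The members, gene lists and rules were chosen with earlier results of these data known. All 8 members and Btaf1 were tested in every comparison, with up to 3 called genes per direction from each list of relatives, the called genes and regions of the window, and the 3 genes most alike, some of which are not reported here. The alternatives were DESeq2, no filter, other thresholds, the replicate number as a block, each shRNA alone, and leaving out each library.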

Additional observations from a re-analysis of the deposited data

Results flagged for a closer look

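Of 56 groups of libraries tested for a library that stands apart, over the 9 genes and 19 named ATAC regions, 2 were found, and chance gives about 1 in 20 groups. In the Ide exon chr19:37307270-37308127, YHSC ATAC replicate 2 stood at 4.2 CPM, below the other YHSC libraries at 6.03 to 6.39. In the Ide intron chr19:37288913-37289374, OHSC ATAC replicate 6 stood at 3.98 CPM, above the other OHSC libraries at 2.22 to 2.46. The knockdown effect differed between culture and transplantation for 3 named genes in the interaction test (edgeR), with log2 differences of -0.78 for Kif11, -0.81 for Bub1 and -0.96 for Kif2c. Without 1 of the 12 libraries the call was lost in 8 fits for Kif11, 7 for Bub1 and 4 for Kif2c, and with the replicate block it was lost for Kif11 (adjusted P = 0.0612) and Bub1 (-0.81).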

How the results depend on the processing

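Of 2221 recomputations of single values, over 55 settings, 0 reversed; 2035 kept their direction and side of the threshold, 94 lost a call, 21 gained one and 71, never called, changed sign. For the members and Btaf1 these numbers were 861, 11, 13 and 60 of 945. Members called after transplantation were 1 with shRNA1 alone and 0 to 1 without 1 library, and in the interaction 0 to 1 without 1 library. Members called between GMPs and CMPs were 2 with DESeq2 and 1 to 2 without 1 library. Regions called by ATAC-seq were 0 at a fold above 2, 8 with no CPM filter and 2 to 6 without 1 library. Member H3K27ac peaks called were 1 with limma, 1 at a ratio above 2 and 5 to 6 without 1 library, and the Ide peak chr19:37288693-37289277 lost its call with libraries scaled to the same median (1.54). Without 1 library the counts were 2 to 2 for age, 0 to 0 for cultured shRNA, 4 to 4 for cultured against transplanted controls, 3 to 4 for MEPs against GMPs, 2 to 3 for MEPs against CMPs and 3 to 3 for YHSCs against CMPs, and Btaf1 stood at -0.33 to -0.29 in culture and -0.42 to -0.34 after transplantation. The cause was not tested where calls changed, except that higher thresholds leave fewer calls by construction.

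Replicate numbers were shared between groups, and whether they pair the libraries was read from deviations from the group means. Deviations of same-numbered libraries correlated at -0.22 to 0.08 for age (4 pairs), -0.04 to 0.05 in culture (6), -0.15 to 0.21 after transplantation (6) and 0.04 to 0.25 in progenitors (6). In groups of 2 libraries the deviations of replicates 1 and 2 mirror each other, so both give the same correlation. The 6 values of each such experiment are therefore not independent, and they cannot decide whether the libraries were paired. With the replicate block, members called were 0 in the interaction, where Kif11 kept -0.78 at an adjusted P of 0.0612, and 2 between GMPs and CMPs, and the other counts of members changed by less than 1.5 times.

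Counts over all genes or regions, higher and lower, moved by over 1.5 times in these cases. For age they were 1010 and 608, and 1811 and 1234 at a fold of 1.2. For cultured shRNA they were 484 and 192, 712 and 354 with no filter, and 115 and 64 by adjusted P. For transplanted shRNA they were 290 and 165, 387 and 341 with no filter, 0 and 0 by adjusted P, and 416 and 352 with shRNA2 alone. For the interaction they were 23 and 22, 114 and 194 with DESeq2, 13 and 13 with the block, and 1 to 117 in all without 1 library. For ATAC-seq they were 8999 and 2592, and 4245 and 578 at a fold above 2. For H3K27ac peaks they were 3602 and 898, 808 and 103 with limma, 1171 and 169 at a ratio above 2, 2773 and 1437 with libraries scaled to the same median, 7054 and 1098 without YHSC replicate 1, 3846 and 2162 without YHSC replicate 2, 4948 and 1534 without OHSC replicate 1, and 4182 and 1483 without OHSC replicate 2. Depth limits Cpeb3 most, with 6 to 26 reads per library in GMPs and CMPs.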

Other observations

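Other genes of the stretch were read in the same fits. The pseudogene Rpl10-ps6, which lies inside Ide on the same strand, was lower in YHSCs than in CMPs by 2.06 on the log2 scale (log2 -2.06, adjusted P = 1.44e-05, edgeR), at 0.293 to 0.743 CPM in YHSCs and 1.47 to 1.91 in CMPs, while Ide itself was lower there too. The processed pseudogene AC137605.4, inside Kif11 on the same strand, stood at 0.331 to 0.351 CPM in cultured control cells and at 0.0931 to 0.146 in cultured knockdown cells (edgeR, log2 -1.52, adjusted P = 0.269, with an unadjusted P below 0.05), a call on few reads that was lost with DESeq2 (-1.55), with no filter (-1.52), by adjusted P, without either control library (-1.56 and -1.48) or either shRNA1 library (-1.42 and -1.48), and with shRNA1 (-1.76) or shRNA2 alone (-1.32). The unclassified gene Gm38345 was lower in MEPs than in CMPs (-0.8, adjusted P = 0.0236) and lower in GMPs than in CMPs (-1.22, adjusted P = 0.00577), and the first of these calls was lost without CMP replicate 1 (-0.72) or MEP replicate 1 (-0.39).

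Whether members followed Btaf1 from mouse to mouse was read over the 8 OHSC libraries, each from 1 old mouse. Over all 8 mice the highest value was for Ide, with Pearson's r of 0.61 and Spearman's rho of 0.62 (exact permutation P = 0.107 for r and 0.115 for rho, 2-sided), and r was 0.26 without the 2 mice farthest from the median of Btaf1. Without these 2 mice r went from -0.13 to 0.7 for March5, from 0.25 to 0.66 for Hhex and from -0.28 to 0.54 for Fgfbp3, so the order of the members rests on those mice. Over the 8 members the lowest Benjamini-Hochberg adjusted P was 0.681, and no relation was detectable in this number of mice.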
